A study of Mus musculus with 8 samples.

Results

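The Polycomb genes described here are Ezh1, Ezh2, Suz12, Eed, Jarid2, Bmi1, Cbx2, Cbx7 and Cbx8, chosen by name as subunits or partners of Polycomb repressive complexes 2 and 1 (PRC2 and PRC1). The choice was made with earlier results of these data known. DNA methylation was read by reduced representation bisulfite sequencing (RRBS) in 8 mouse libraries of leukaemic progenitors named I1DN. The cells were cKit+ and Cd11b- and came from transplanted mice. The treatments, labelled 5 days, were Vehicle, AG120 (ivosidenib, which blocks the mutant form of IDH1), AZA (the nucleoside azacitidine, which traps DNA methyltransferases) and both drugs together, called the combination, with 2 libraries each. Every group carries the I1DN cells, a name the labels do not spell out, and no label says that the libraries of a group came from separate mice, so p-values measure only the spread between these libraries. All CpG cytosines inside each gene or within 2000 bp of it were taken (mm10). Each gene was divided into 2 end windows (1000 bp outside to 500 bp inside each end), the rest of the gene, and the flank beyond each end window. A unit was kept when every library had at least 20 reads in it, and its level is the percentage of its reads that called the cytosine methylated. Of 45 units, 19 were kept: 9 of 18 end windows, 8 of 9 rests and 2 of 18 flanks. Across all genes 34579 units were kept, of which 15363 were end windows.

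Polycomb proteins keep developmental genes silent through histone marks. PRC2 methylates lysine 27 of histone H3 with Ezh1 or Ezh2 as its enzyme, on a core that needs Suz12 and Eed, and Jarid2 is a cofactor that recruits and stimulates it. Canonical PRC1 carries Bmi1 (Pcgf4) beside a ring finger ligase of histone H2A, and reads the PRC2 mark through a chromodomain protein such as Cbx2, Cbx7 or Cbx8. In blood, Bmi1 sustains the self-renewal of stem cells and of leukaemic cells, and both gain and loss of Ezh2 function occur in blood cancers. CpG-rich starts of active genes usually carry little DNA methylation, while gene bodies are usually methylated.

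RRBS reads fragments cut at CCGG, the site of the enzyme MspI, so the sequence around a start decides which cytosines can be read. RefSeq promoter windows (GRCm38.p6, the coordinates of mm10; 250 bases before the start to 50 after it) were matched for 8 of the 9 genes by gene identifier; Cbx2 has no entry. CCGG reads the same on both strands, and each copy holds 1 CG. It occurs in 52.8% of 32851 such windows over 27025 genes, and the median window holds 7 CG. The 250 bases before the start of 4 PRC2 genes are printed 5' to 3', with capitals for each CG that had at least 10 reads in at least 4 libraries. They are shown because they differ in what could be measured: Ezh1 (chr11:101226464-101226713, minus strand) and Eed (chr7:89980977-89981226, minus strand) against Suz12 (chr11:79992856-79993105, plus strand) and Jarid2 (chr13:44730524-44730773, plus strand).
Ezh1: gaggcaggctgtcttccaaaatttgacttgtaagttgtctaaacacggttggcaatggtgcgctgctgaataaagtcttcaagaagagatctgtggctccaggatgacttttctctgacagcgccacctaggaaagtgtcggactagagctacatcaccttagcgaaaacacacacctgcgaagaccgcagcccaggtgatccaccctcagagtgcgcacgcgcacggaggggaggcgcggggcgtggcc
Eed: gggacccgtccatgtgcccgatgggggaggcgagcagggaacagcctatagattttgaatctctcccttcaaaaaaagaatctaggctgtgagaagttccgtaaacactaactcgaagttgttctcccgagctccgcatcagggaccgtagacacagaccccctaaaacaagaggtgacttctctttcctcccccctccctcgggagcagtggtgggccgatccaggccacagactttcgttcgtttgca
Suz12: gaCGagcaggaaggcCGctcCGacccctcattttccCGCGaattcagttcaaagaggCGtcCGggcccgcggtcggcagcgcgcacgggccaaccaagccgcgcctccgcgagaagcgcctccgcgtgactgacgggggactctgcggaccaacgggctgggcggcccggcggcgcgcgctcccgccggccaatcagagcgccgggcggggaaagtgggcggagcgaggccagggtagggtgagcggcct
Jarid2: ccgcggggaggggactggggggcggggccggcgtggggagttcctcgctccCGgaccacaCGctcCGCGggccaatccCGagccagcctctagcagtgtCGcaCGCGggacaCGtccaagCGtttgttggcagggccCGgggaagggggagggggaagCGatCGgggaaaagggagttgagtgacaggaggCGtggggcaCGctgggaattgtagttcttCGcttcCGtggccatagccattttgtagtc
No capital stands in the Ezh1 and Eed sequences. Their 300-base windows hold 23 and 17 CG but 0 CCGG, and 0 of those CG were read in any library. The Suz12 window holds 41 CG and 4 CCGG, and all 41 CG were read in at least 1 library, 7 of them to the depth that the capitals mark. The Jarid2 window holds 24 CG and 3 CCGG, with 24 read and 17 read to that depth. Of the other windows, Ezh2 holds 31 CG and 1 CCGG, Bmi1 23 and 3, Cbx8 24 and 1, and Cbx7 33 and 2. In these, 31, 23, 8 and 30 CG were read in at least 1 library, and 5, 0, 0 and 0 to that depth. Bmi1 thus has as many CCGG as Jarid2 and no CG at that depth, so the number of CCGG alone does not give the depth. Values for the Ezh1 and Eed starts therefore come from cytosines on either side of the sequences above, none of them from within it.

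The kept windows at the starts of 8 Polycomb genes (for Cbx2 at its lower-coordinate end) were almost free of methylation. Cbx7 had no kept end window, and a window around its RefSeq promoter start, described below, had 0.381 to 33.3%. Over the 9 end windows kept, the median of the mean level was 1.44%, and over all 15363 end windows it was 2.63%. In 8 windows, all except the far end of Cbx8, the mean level stayed under 5%, as it did in 59.9% of all end windows. Of the values for single cytosines with at least 10 reads in these 8 windows, 96.6% were exactly 0, against 95.9% in all end windows under 5%.

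Among the PRC2 genes, the start windows of Ezh1 and Eed had lower levels in the libraries with AZA. The Ezh1 window (chromosome 11, 101225964 to 101227463, 57 cytosines, 2092 to 4557 reads per library) had 2.13 and 4.68% methylated reads in Vehicle, 4.21 and 3.68% in AG120, 0 and 0% in AZA, and 0.0832 and 0% with both drugs. All 4 libraries with AZA lay below all 4 without it. In bulk DNA, fewer methylated cells and fewer methylated copies per cell cannot be told apart. The separation also depended on which cytosines each library read. Over cytosines read at least 10 times in at least 2 libraries, AG120 replicate 1 (0.0478%) lay below combination replicate 1 (0.0832%), as described below. Over all cytosines of the window the mean was 3.68% ± 1.11 (SD, n = 4) without AZA and 0.0208% ± 0.0416 with it, a difference of -3.66 points. The two-sided exact permutation p was 0.0286, the smallest that 4 libraries against 4 can give, and it was 1 after Benjamini-Hochberg adjustment over all 34579 units. That smallest p passes the adjustment only if most units reach it, so the adjusted p of this test cannot single out a window. The 0 of the AZA libraries allows a level of up to 0.0532% (3 counts over the reads of both). The 95% Wilson intervals of the libraries without AZA ran from 1.67% at the lowest bound to 5.68% at the highest. Reads were summed over cytosines, so a read that spans several of them was counted at each. Intervals and such limits, here and below, treat these counts as independent. They are therefore too narrow even for counting error, and they leave out the spread between libraries.

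Eed, the PRC2 subunit that binds trimethylated lysine 27 and stimulates the enzyme, also had its lowest levels in the libraries with AZA. Its start window (chromosome 7, 89980477 to 89981976, 93 cytosines, 2645 to 6998 reads) had 2.20 and 3.60% in Vehicle, 0.0378 and 2.28% in AG120, and 0% in each of the 4 libraries with AZA, alone or combined. The 0 of those 4 libraries allows up to 0.0167%, and AG120 replicate 1 stood next to them with 1 methylated read in 2645. The mean was 2.03% ± 1.48 (SD, n = 4) without AZA, so the difference was -2.03 points (exact permutation p = 0.0286, adjusted p = 1). Of the 9 end windows, these 2 had non-overlapping levels that were lower with AZA, and 0 had higher ones. Over all end windows 1.77% were non-overlapping and lower with AZA and 0.814% higher, and among end windows under 5% the share that was lower was 1.98%.

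**Figure D1:**
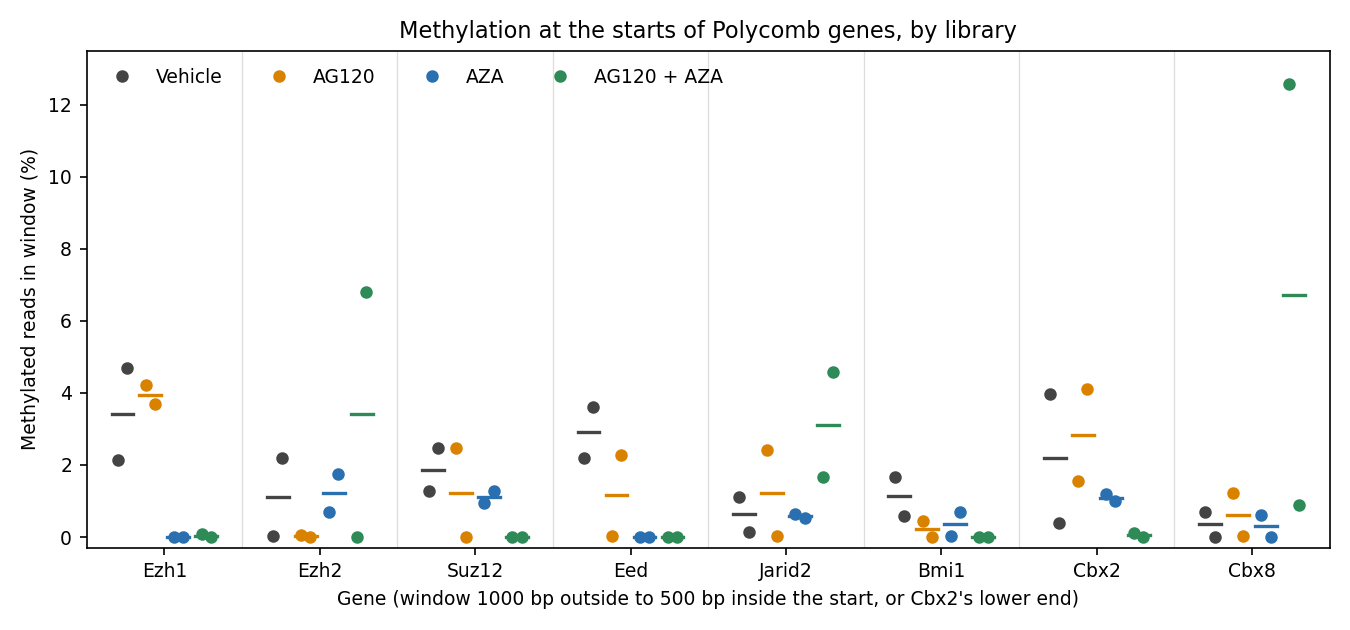
Percentage of methylated reads (vertical axis) in the start window of 8 Polycomb genes (for Cbx2 the window at its lower-coordinate end) in each of the 8 libraries; points are libraries, short lines are group means (n = 2). Ezh1 and Eed are at or next to 0 in all libraries with AZA, and the highest value, 12.6%, is the Cbx8 window in 1 combination library.

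By edgeR's quasi-likelihood test, fitted over all units, neither window passed the adjusted threshold of 0.05. For Ezh1 the unadjusted p was 0.00511 in AZA against Vehicle (adjusted p = 1), 0.0170 in the combination against Vehicle (adjusted p = 0.844) and 0.0136 in the combination against AG120 (adjusted p = 1). For Eed it was 0.00861 in AZA against Vehicle (adjusted p = 1) and 0.0130 in the combination against Vehicle (adjusted p = 0.844). That test called 0 of 34579 units (0%) in each of the 5 pairwise comparisons, in the interaction and in the average effect of either drug, and 0 member units. At an unadjusted p under 0.05 it gave 1264 units (3.66%) for AG120, 877 (2.54%) for AZA and 1912 (5.53%) for the combination, each against Vehicle. It gave 1790 (5.18%) in the combination against AZA, 1545 (4.47%) in the combination against AG120, 1110 (3.21%) for the interaction, and 1844 (5.33%) and 1276 (3.69%) for the average effects of AG120 and AZA. By the exact permutation test 0 units passed adjustment for either drug, with 4.58% of units under an unadjusted 0.05 for AG120 and 2.47% for AZA. Its smallest possible p, 0.0286, could pass only if most of the 34579 units reached it, so no conclusion is drawn from that 0. limma also called 0 units in every comparison (0%). The calls depended on the tool: with edgeR's likelihood ratio test, which does not add the uncertainty of the spread, adjusted p was 0.0136 for Ezh1 and 0.0263 for Eed in AZA against Vehicle, and with DESeq2 it was 0.00664 and 0.00723. Those tools called 231 units (0.668%) and 441 units (1.28%) in that comparison. In the combination against Vehicle their adjusted p was 0.0338 and 0.0114 for Ezh1 and 0.0287 and 0.00729 for Eed, beside 674 (1.95%) and 1684 (4.87%) units called. Against AG120 the values in the combination were 0.02003 and 0.00692 for Ezh1, beside 692 (2%) and 1409 (4.07%) units. For the average effect of AZA the likelihood ratio test and DESeq2 gave adjusted p of 5.4e-05 and 6.76e-06 for Ezh1 and 0.00438 and 0.000324 for Eed, with 1.24% and 3.08% of all units called. In the comparisons of AG120 with Vehicle they called 0.957% and 2.38% of units, and no member.

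The methylated reads of both windows sat on few cytosines. In Ezh1, 5 cytosines had at least 10% methylated reads at a depth of at least 10, and each did so in a single library. The cytosine 297 bp into the gene had 128 of 128 reads methylated in AG120 replicate 2 and 0 in the 6 other libraries that read it to that depth, among them 0 of 258 in combination replicate 1. The cytosine 201 bp in had 64 of 292 methylated reads in Vehicle replicate 1, and that 105 bp in had 94 of 222 in Vehicle replicate 2. The cytosine 437 bp in had 12 of 12 in AG120 replicate 2. The other cytosine of the same CG, at the adjacent base, differed in the same library: 0 of 53 at 202 bp and 0 of 411 at 436 bp. In AG120 replicate 1, 190 of the window's 192 methylated reads fell on a cytosine at -396 bp, before the start, that no other library read. With positions restricted to those read to that depth in at least 2 libraries, a choice made after the values were seen, AG120 replicate 1 stood at 0.0478%, below the 0.0832% of combination replicate 1. The groups with and without AZA then overlapped, and the difference was -2.62 points (exact permutation p = 0.0571).

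In Eed as well 5 cytosines carried such methylation, each in 1 library. They lay at 483 and 479 bp in Vehicle replicate 2, at 246 and -491 bp in Vehicle replicate 1, and at -367 bp in AG120 replicate 2, with negative values before the start. The last of these was read at 18 to 521 reads in all 8 libraries and had 135 of 340 reads methylated in AG120 replicate 2 and 0 in the others. For the cytosines at 483, 479 and 246 bp, the other cytosine of the same CG held no methylated read in the same library. It had 0 of 81 at 482 bp, 0 of 23 at 480 bp and 0 of 40 at 247 bp. Of the Eed window, 6 cytosines, from -431 to -367 bp, had at least 10 reads in every library. Over these the difference with AZA was -1.67 points, with every carrying value in that 1 library (exact permutation p = 0.429). Of the Ezh1 window, 0 cytosines reached that depth in all libraries. With the restriction to 2 libraries Eed kept its difference (-2.10 points, exact permutation p = 0.0286).

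The 0% of the Eed window with AZA also depended on where the window ends, 500 bp inside the gene. The stretch from 224 to 712 bp, which crosses that border and was read in every library, had 0.736 and 2.35% in Vehicle, 0 and 1.26% in AG120, 0.0219 and 2.93% in AZA, and 5.76 and 0.0312% with both drugs. Its mean was 2.19% with AZA and 1.09% without, the opposite direction to the window. The rest of Eed had 4.75% in AZA replicate 2 and 9.53% in combination replicate 1, and 0 to 1.82% in the others.

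**Figure D2:**
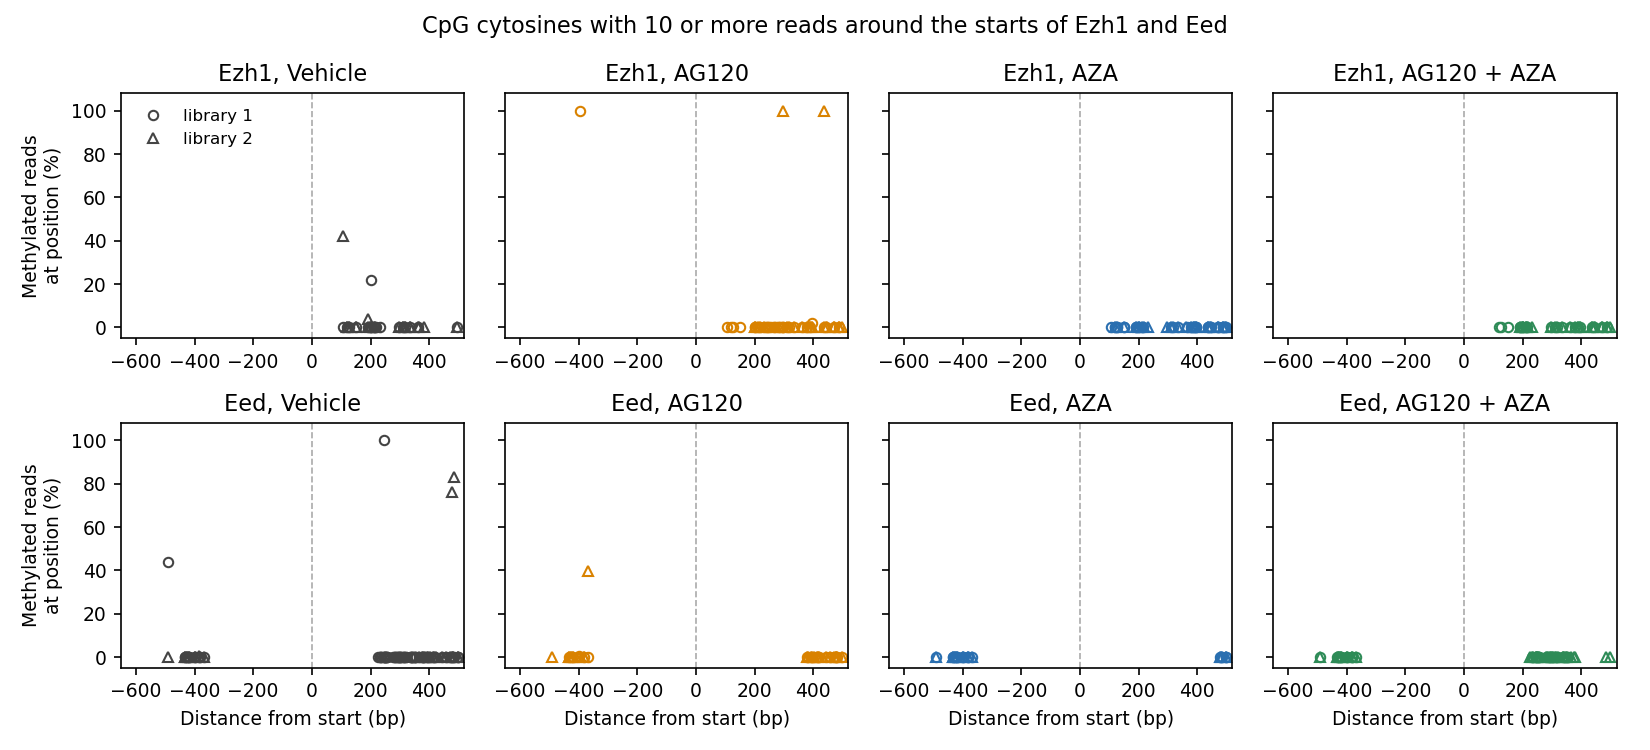
Percentage of methylated reads (vertical axis) at each CpG cytosine with at least 10 reads, by distance from the start in bp (horizontal axis; negative is before the start), for Ezh1 (top) and Eed (bottom) in the 4 groups; circles and triangles are the 2 libraries of a group. The cytosines high in Vehicle or AG120 are each high in 1 library, and the libraries with AZA hold no carrying cytosine within these windows.

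Single cytosines carried the methylation of the other starts as well, and of low windows across the genome. In the 8 low windows, 53 cytosines carried at least 10% methylated reads in some library, and 50 of them (94.3%) did so in 1 library only. Over all end windows under 5% that share was 87.6%. A median of 87.7% of the methylated reads of a window in a library came from a single cytosine, against 86.2% over all such windows. Libraries with AG120 had fewer reads at end windows (medians of 1941 and 1907 in AG120 and 1473 and 1474 in the combination, against 2778 to 3379 in the others). More of their windows held no methylated read: 22.6 and 21.1% in AG120 and 29.8 and 28.1% in the combination, against 11.3 and 9.91% in Vehicle and 16.0 and 13.8% in AZA. Of all end windows, 2.02% held no methylated read in any of the 4 libraries with AZA, as Eed did. Total CpG calls per library were 90373925 to 130796962, and the share of them that was methylated was 32.6 to 39.2% without AG120 and 41.5 to 50.5% with it. The part of these differences in the gene values was not tested.

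Suz12, which holds the PRC2 core together, had 1.29 and 2.46% methylated reads at its start in Vehicle, 2.47 and 0% in AG120, 0.950 and 1.27% in AZA, and 0 and 0% with both drugs. The window (chromosome 11, 79992106 to 79993605) had 206 cytosines and 131 to 4919 reads, with the fewest, 131 and 534, in the combination, whose 0 allows up to 0.451%. The combination lay below Vehicle by 1.87 points (edgeR adjusted p = 0.956) and AZA below Vehicle by 0.763 points (adjusted p = 1), without overlap in either case. The 4 libraries with AZA did not separate from the others (exact permutation p = 0.171).

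Ezh2, the main H3K27 methyltransferase of dividing cells, had different group orders at the gene end in the gene table and at the start in the promoter table. The window at the listed gene end (chromosome 6, 47594771 to 47596270, 193 cytosines, 555 to 6280 reads) had 0.0283 and 2.18% in Vehicle, 0.0483 and 0% in AG120, 0.708 and 1.76% in AZA, and 0 and 6.81% with both drugs. The highest value, in combination replicate 2, came mainly from a cytosine 398 bp inside the gene with 176 of 176 methylated reads and one 425 bp inside with 81 of 176. The same cytosine at 398 bp had 47 of 329 in Vehicle replicate 2, so it carried methylation in 1 library of each of these groups. This window shares 938 bp with an end window of F830010H11Rik. In it no group stood apart from every other, and the exact permutation p was 0.371 with AZA and 0.971 with AG120. The promoter table puts the start at position 47595030. In a window around that start (47594531 to 47596030, 1417 to 7693 reads), chosen after the values were seen, levels were 0.950 and 3.35% in Vehicle, 2.71 and 0% in AG120, 1.36 and 1.31% in AZA, and 5.18 and 7.43% with both drugs. Both combination libraries there lay above all others (mean 6.30% ± 1.59 against 2.15% ± 1.70 in Vehicle, SD, n = 2), a difference that was not tested. How often that order occurs over the windows of all genes was not counted. The stretch from -323 to 1060 bp, read in every library, had the same libraries highest, at 4.37 and 6.43% against at most 3.93%.

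Jarid2, the PRC2 cofactor, also had a nearly unmethylated start (chromosome 13, 44729774 to 44731273, 239 cytosines, 2718 to 12912 reads). Its levels were 1.12 and 0.135% in Vehicle, 2.42 and 0.0198% in AG120, 0.627 and 0.522% in AZA, and 1.66 and 4.57% with both drugs. The combination lay above Vehicle by 2.48 points and above AZA by 2.54 points without overlap, and neither difference passed the edgeR test (adjusted p = 1 in both). All 17 CG in capitals of its printed promoter lie inside this window, and 10 cytosines of the window carried methylation, each in 1 library. In a window around a second start in the promoter table, at 44731271, also chosen after the values were seen, the combination (1.85 and 4.49%) and Vehicle (1.87 and 0.147%) overlapped.

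Of the PRC1 genes, Bmi1 had the lowest start level. Its window (chromosome 2, 18676018 to 18677517, 260 cytosines, 2029 to 12307 reads) had 1.67 and 0.579% in Vehicle, 0.450 and 0% in AG120, 0.0264 and 0.692% in AZA, and 0 and 0.0086% with both drugs. The combination lay below Vehicle by 1.12 points, with an edgeR p of 0.0122 (adjusted p = 0.844; DESeq2 adjusted p = 0.0110; likelihood ratio adjusted p = 0.0804). That order was lost past the border of the window: the stretch from -670 to 654 bp had 1.81 and 0.00815% in the combination and 1.63 and 0.498% in Vehicle, so combination replicate 1 was the highest of the 8 libraries. With AG120 the mean was 0.115% ± 0.223 (SD, n = 4) against 0.743% ± 0.685 without it, and the groups overlapped (exact permutation p = 0.0571, adjusted p = 0.724). At 20 cytosines from 140 to 246 bp inside the gene that had at least 18 reads in every library, 158 of 160 values were 0 and 0 exceeded 1%. Nearly all methylated reads of the window lay outside the stretch that all libraries shared. The window shares 1214 bp with an end window of Commd3, and those bases count for both genes.

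Cbx2 was read at its lower-coordinate end (chromosome 11, 119022019 to 119023518, 182 cytosines, 1219 to 9645 reads); its strand is not given in the sources used here. The levels were 3.98 and 0.397% in Vehicle, 1.55 and 4.10% in AG120, 1.19 and 0.989% in AZA, and 0.104 and 0% with both drugs. In this window both combination libraries lay below every library of the other groups, and the share of all end windows with that order was not counted. In the stretch from -182 to 1096 bp over the same end they did not: combination replicate 1 had 1.78% there, above Vehicle replicate 2 (1.35%), AG120 replicate 1 (0.506%) and AZA replicate 1 (1.07%). By edgeR's quasi-likelihood test the difference in the end window was -2.14 points from Vehicle (adjusted p = 0.895), -1.04 from AZA (adjusted p = 0.953) and -2.78 from AG120 (adjusted p = 1). DESeq2 called the last of these (adjusted p = 0.0241). The gene Gm35829 overlaps the whole window.

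Cbx8, which neighbours Cbx2 on chromosome 11, was the one member read at both ends. Its start window (119040414 to 119041913, 87 cytosines, 564 to 5767 reads) had 0.701 and 0% in Vehicle, 1.21 and 0.0336% in AG120, 0.606 and 0% in AZA, and 12.6 and 0.887% with both drugs. The mean of the combination rested on 1 of its libraries. The far end (119035303 to 119036802, 52 cytosines, 103 to 1497 reads) had 9.71 and 37.2% in Vehicle, 54.5 and 36.9% in AG120, 19.0 and 31.7% in AZA, and 46.7 and 0.873% with both drugs. The 2 combination libraries were further apart than the group means, which ran from 23.4 to 45.7%, and the exact permutation p was 0.514 with AZA and 0.486 with AG120. The flank beyond the far end had 0 to 64.2%, with 24 to 179 reads, and the flank before the start had 0.0630 to 10.04%. In that flank both combination libraries (9.81 and 10.04%) lay above the rest (edgeR adjusted p = 1 against Vehicle). The share of all flanks with that order was not counted.

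Cbx7, a chromodomain protein that also takes part in repression of the Cdkn2a locus, had no end window that passed the read minimum. At its listed upper end 2 libraries had no read, and the others had 87.4 to 100% methylated reads, from 18 to 2012 reads. The promoter table puts its start at position 79932646 of chromosome 15, inside the gene as the gene table lists it (79915804 to 79971143). In a window around that start, chosen after the values were seen, levels were 2.65 and 5.95% in Vehicle, 16.6 and 33.3% in AG120, 0.381 and 11.8% in AZA, and 1.78 and 0.857% with both drugs. The AG120 libraries, the highest, had 157 and 660 reads there, against up to 7020 in the others. In the stretch that spans the start, 38350 to 38721 bp from the listed upper end and read in every library, the level was 0 to 1.09% and both AG120 libraries stood at 0%.

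Over the 9 end windows, levels that did not overlap between groups were mostly lower levels, as they were across the genome. In AG120 against Vehicle 1 window was lower and 0 higher, beside 20.2% and 12.4% of all end windows. In AZA against Vehicle 3 were lower (Ezh1, Suz12 and Eed) and 0 higher, beside 19.4% and 12.7%. In the combination against Vehicle 5 were lower (Ezh1, Suz12, Eed, Bmi1 and Cbx2) and 2 higher (Jarid2 and the Cbx8 start), beside 25.1% and 11.5%. In the combination against AZA 3 were lower and 2 higher, beside 20.2% and 12.8%, and in the combination against AG120 3 were lower and 0 higher, beside 16.9% and 12.3%. Comparisons against Vehicle share its libraries. With AG120 against without it, 0 windows separated in either direction (3.22% lower and 1.13% higher over all end windows). The median difference over the 9 windows was 0.272 points for AG120, -0.763 for AZA and -1.12 for the combination, each against Vehicle, beside -0.0646, -0.140 and -0.177 over all end windows.

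Inside the genes levels varied widely between libraries of a group. The rest of Jarid2 had 35.6 and 43.7% methylated reads in Vehicle, 30.8 and 52.1% in AG120, 37.0 and 25.7% in AZA, and 50.5 and 66.1% with both drugs. The rests of Cbx2 (14.9 to 49.2%), Cbx7 (11.02 to 66.5%) and Bmi1 (5.95 to 70.8%) were intermediate, and that of Eed was low (0 to 9.53%). The rests of Ezh1 (0 to 96.6%), Suz12 (0 to 69.5%) and Ezh2 (0 to 36.6%) ranged widely. The median of the mean level was 20.8% over the 8 rests and 61.6% over all 15863 rests. The kept end window was below the rest in all 8 libraries in Bmi1, Cbx2 and Jarid2, that is in 3 of the 7 members with both. It was below the rest in 5 libraries in Ezh2 and in Suz12, in 4 in Eed and in 3 in Ezh1. Across 8683 genes the end window with the most reads, start or not, was below the rest in all 8 libraries in 61%.

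**Figure D3:**
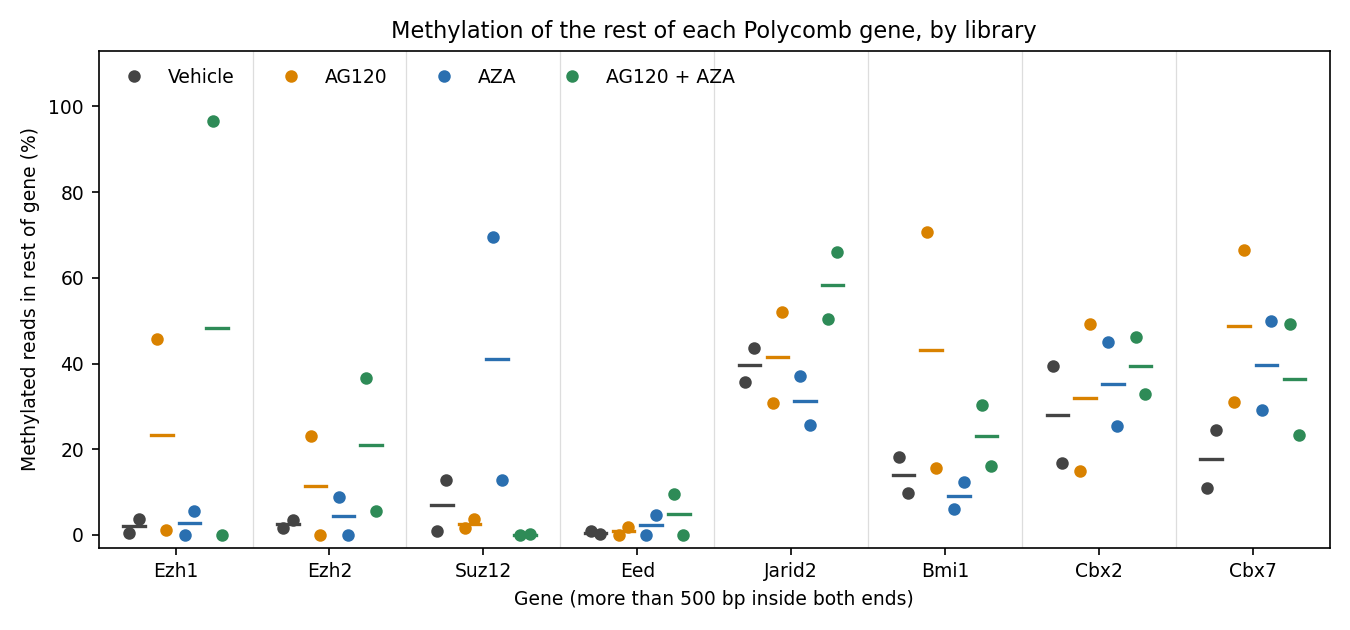
Percentage of methylated reads (vertical axis) in the rest of 8 Polycomb genes, more than 500 bp inside both ends, in each of the 8 libraries; points are libraries, short lines are group means (n = 2). Libraries of a group differ widely, up to 0 and 96.6% for Ezh1 in the combination, while Eed stays under 10% throughout.

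No rest differed between treatments by the edgeR test (smallest adjusted p among the members in any contrast 0.837). The counts without overlap were 0 lower and 1 higher (Cbx7) in AG120 against Vehicle, beside 11.8% and 24% of all rests, and 0 lower and 2 higher (Suz12 and Cbx7) in AZA against Vehicle, beside 17.1% and 16.8%. In the combination against Vehicle 1 was lower (Suz12) and 2 higher (Ezh2 and Jarid2), beside 12.8% and 25.7%. Set against AZA, the combination had 1 lower (Suz12) and 2 higher rests (Jarid2 and Bmi1), beside 11.6% and 25%, and against AG120 1 lower (Suz12) and 0 higher, beside 15% and 17.1%. The Jarid2 body in the combination was 18.7 points above Vehicle (edgeR adjusted p = 1) and 26.97 points above AZA (adjusted p = 0.956). For Suz12, combination against AZA, the edgeR p was 0.00759 (adjusted p = 0.923), and the likelihood ratio test (adjusted p = 0.0129) and DESeq2 (adjusted p = 0.00083) called it. Those tools called 2.09% and 4.86% of all units in that comparison. DESeq2 also called the Suz12 rest for the average effect of AG120 (adjusted p = 0.00801) and for the interaction (adjusted p = 0.0411), where it called 4.94% and 2.57% of units and the likelihood ratio test 1.92% and 1.02%.

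Libraries read different cytosines of the same rest. In Ezh1 the stretch from 105 to 571 bp had 0 to 4.28% methylated reads in every library, while 5 short stretches deeper in the gene, each read in 1 or 2 libraries, were 80 to 100% methylated. That first stretch gave 2.59% of the reads of the rest in combination replicate 1, which stood at 96.6%, and 100% in combination replicate 2, which stood at 0%. In Suz12 the stretch from -462 to 1053 bp had 0 to 3.07%, and one 25641 to 25772 bp inside was 100% methylated in each of the 5 libraries that read it. The stretch near the start gave 30.5% of the reads of the rest in AZA replicate 1, which stood at 69.5%. In Bmi1 the methylated body stretch gave 7.28 to 95.1% of the reads of the rest. In Jarid2 the nearly unmethylated stretch from 2014 to 3300 bp gave 38.9 and 32.6% of the reads of the rest in the combination and 45.2 to 72.0% in the other libraries. Of its 4 methylated stretches read in every library, 2 had a lower mean in the combination than in Vehicle: 84.3% ± 13.7 (SD, n = 2) against 92.8% ± 3.56 from 138836 to 139260 bp, and 91.6% ± 11.7 against 96.0% ± 4.498 from 109973 to 110030 bp. The other two had a higher one, 99.96% ± 0.0539 against 94.5% ± 7.40 from 116008 to 116395 bp and 99.5% ± 0.738 against 99.4% ± 0.191 from 140905 to 141093 bp.

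Stretches read in every library were also compared, with cytosines joined where gaps were at most 300 bp. Within a stretch libraries could still have read different cytosines, so differences between libraries there share this limit. Of 77 stretches 22 had at least 20 reads in every library, and their levels were mostly at one extreme: 13 had a mean under 10% and 6 a mean over 80%. Jarid2 had 4 of the highly methylated ones, between 109973 and 141093 bp into the gene, with levels of 74.6 to 100% in single libraries, and a stretch 2014 to 3300 bp in with 0 to 3.70%. Cbx2 had one 3246 to 3762 bp from its lower-coordinate end with 88.8 to 100%, and Cbx7 one 53110 to 53377 bp from its listed upper end with 56.8 to 100%. The Bmi1 stretch 3886 to 4237 bp in was intermediate at 27.7 to 81.7%, with Vehicle at 59.7 and 44.7%, AG120 at 74.2 and 67.8%, AZA at 81.7 and 37.7%, and the combination at 81.5 and 27.7%.

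**Figure D4:**
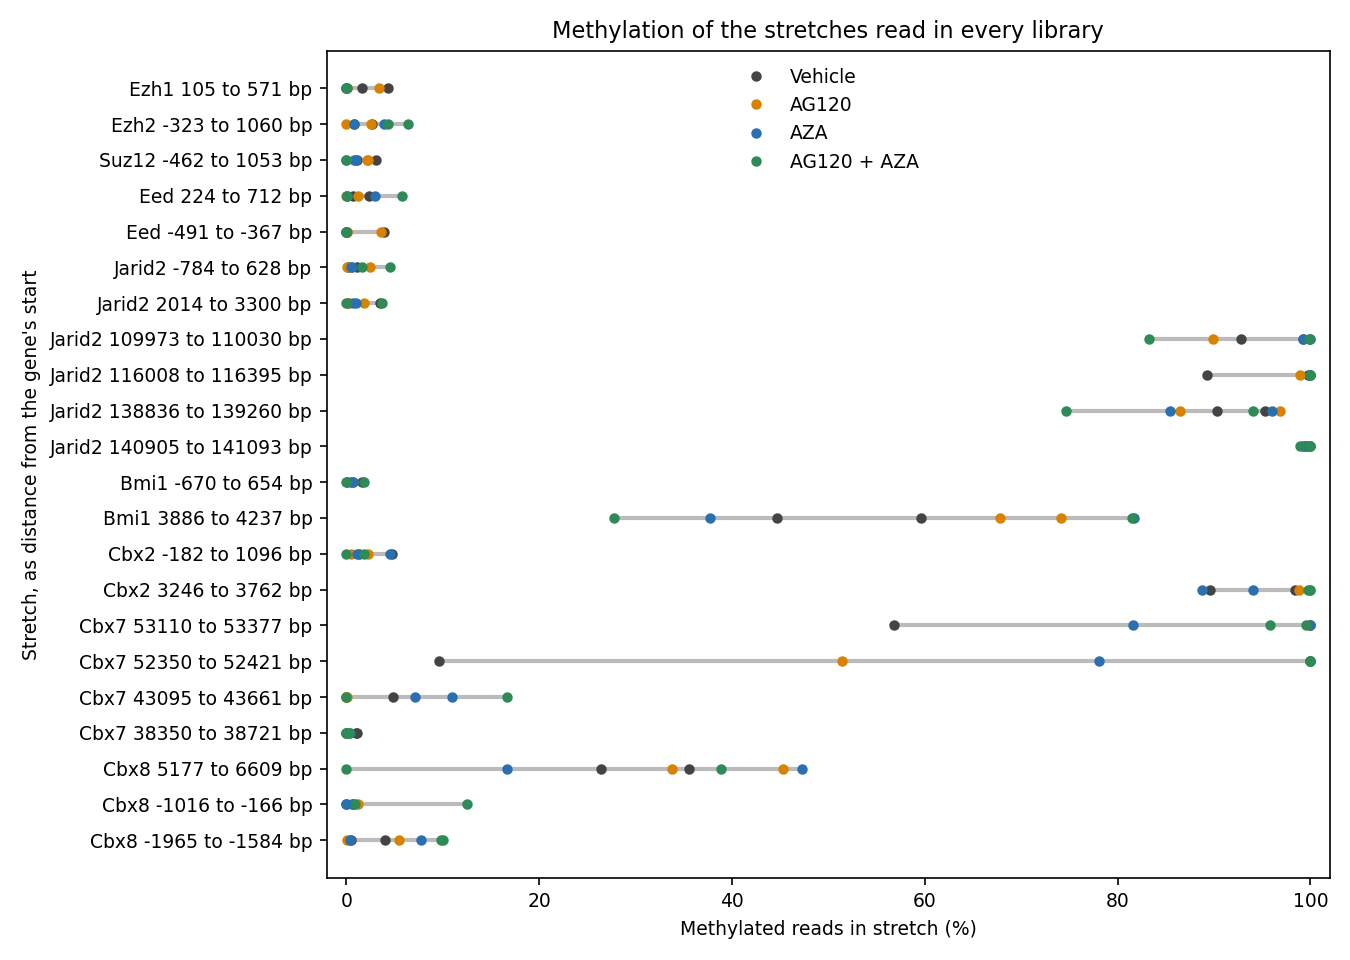
Percentage of methylated reads (horizontal axis) in the 22 stretches with at least 20 reads in every library, ordered by gene and labelled by distance in bp from the start (for Cbx2 from its lower-coordinate end, for Cbx7 from its listed upper end); points are libraries and grey bars their range. Stretches near starts lie low in every library, the highest value being the 12.6% of Cbx8, and 6 body stretches have means over 80%.

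Other genes of the pathway were measured by the same units, from lists written with earlier results of these data known. None of their units was called in any contrast by edgeR. End windows were kept for 7 of 8 PRC2 accessory and scaffold genes, 8 of 10 canonical PRC1 genes, 13 of 14 variant PRC1 genes, 7 of 8 genes of the H2A deubiquitinase and the H3K27 demethylases, and 11 of 12 trithorax counterparts. Windows without overlap in the combination against Vehicle were 6 lower and 0 higher of 9 in the PRC2 accessory list, 1 and 0 of 8 in canonical PRC1, 4 and 1 of 13 in variant PRC1, 4 and 0 of 7 in the deubiquitinase and demethylase list, and 4 and 0 of 12 in the trithorax list, beside 25.1% lower and 11.5% higher over all end windows. With AZA against without it, 0 end windows of each list separated in either direction, beside 1.77% lower and 0.814% higher over all end windows. In the combination against Vehicle the median difference of these lists was -0.743, -0.141, 0.900, -0.804 and -0.117 points in the same order, beside -0.177 over all end windows.

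For each list the 2 units with the lowest edgeR p there are named, none of them past the threshold. At the start of Rbbp4, a histone chaperone in PRC2, the level was 0.771% ± 0.461 (SD, n = 2) in Vehicle, 2.94% ± 0.505 in AG120, 0.584% ± 0.0543 in AZA and 0.0279% ± 0.00186 with both drugs (edgeR adjusted p = 0.755). At Ash1l, an H3K36 methyltransferase of the trithorax group, it was 2.0% ± 0.345 (SD, n = 2) in Vehicle and 0.0137% ± 0.0193 in the combination (adjusted p = 0.841). The end windows of Epop (0.925 and 0.140%), Phc2 (1.99 and 0.159%), Pcgf1 (1.79 and 0.0978%) and Foxk2 (1.94 and 0.0290%) also had lower means in the combination than in Vehicle. The gene bodies chosen by the same rule had higher means in it: Cbx6 at 95.01% in Vehicle and 99.8% in the combination, Auts2 at 60.0 and 75.1%, Kdm6b, a demethylase of H3K27, at 25.5 and 46.7%, and Kmt2b at 34.0 and 69.7%. Adjusted p was 0.841 to 0.957 for these 8 units and Ash1l. The named units were picked by their p in this same comparison, so their directions cannot stand for their lists. Over the whole lists the mean was lower in the combination at 7 of 9, 4 of 8, 6 of 13, 5 of 7 and 8 of 12 end windows, in the order above. Over all genes it was lower at 8395 of 15363. Of all rests, 25.7% were non-overlapping and higher in the combination than in Vehicle, and 12.8% lower.

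Methylation does not give expression, so the cell label could be set only beside the methylation of marker genes. The end window of Kit, the receptor by which the cells were selected, had 0.137 to 19.4% over the libraries, and that of Cd34 had 0 to 7.30%. Itgam, which encodes Cd11b, had no end window that passed the read minimum, and of the markers of other blood and stromal cells only Itga2b (0 to 6.31%) and Cxcl12 (16.3 to 52.5%) had one. None of the 7 lymphoid markers did.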

How the data were processed

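RRBS libraries were made from genomic DNA with a commercial kit that includes spike-in controls, per the labels' protocols. The deposited table holds raw counts of methylated and unmethylated reads at 4006353 CpG cytosines, without normalization, per the file headers. The submitters' processing notes name Trim Galore 0.4.4, Bismark 0.22.3, edgeR 3.32 and mm10, without saying what each was used for.

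Counts were summed per unit over all RefSeq genes of the autosomes and X and fitted with edgeR 4.0.16 in R 4.3.3 (robust quasi-likelihood F-test over all 8 libraries, with library terms and 1 methylation coefficient per group), adjusted over all 34579 units at 0.05. limma 3.58.1 (pseudocount 2) and DESeq2 1.42.0 were alternatives. Each drug was also tested by exact permutation of 4 libraries against 4 (70 assignments), adjusted likewise. Scripts were tested on simulated data. Members and lists were chosen with earlier results of these data known. All members were named with their kept units, and 2 units of each other list by the smallest edgeR p in the combination against Vehicle. The gene-end windows of a gene are taken from the gene table, and Wilson intervals are at 95%.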

Additional observations from a re-analysis of the deposited data

Results flagged for a closer look

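In the rest of Suz12 the levels with AZA moved in opposite directions without and with AG120. Both AZA libraries (69.5 and 12.84%) lay above both Vehicle libraries (1.03 and 12.77%), a difference of 34.3 points, while both combination libraries (0 and 0.127%) lay below both AG120 libraries (1.55 and 3.62%), a difference of -2.52 points. The interaction of the drugs had an edgeR p of 0.0362 (adjusted p = 1; likelihood ratio adjusted p = 0.184; limma adjusted p = 0.929; DESeq2 adjusted p = 0.0411). Which cytosines were read differed. The stretch 25641 to 25772 bp inside the gene was 100% methylated wherever it was read. It was read in both AZA libraries, in both AG120 libraries and in 1 Vehicle library, and in neither combination library. In the stretch from -462 to 1053 bp, read in every library, AZA stood at 0.758 and 0.976% and Vehicle at 1.10 and 3.07%.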

How the results depend on the processing

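The directions and calls of the member windows depended on which cytosines were counted and on the test. With edgeR's likelihood ratio test 331, 231 and 674 units were called in AG120, AZA and the combination against Vehicle, 721 and 692 in the combination against AZA and against AG120, 353 for the interaction, and 663 and 429 for the average effects of AG120 and AZA; DESeq2 called 822, 441, 1684, 1680, 1409, 889, 1708 and 1064 in the same order. With cytosines read at least 10 times in every library (7707 units), edgeR called 5, 1 and 6 against Vehicle, 4 in the combination against AZA and 5 for the average effect of AG120. On those cytosines Eed had 1.67 points more with AG120 (summed reads or unweighted mean; -0.872 over all cytosines) and -1.67 with AZA by either measure, and Bmi1 had 0.0016 more with AG120 and 0.0076 more with AZA by either measure. The log2 fold change of the combination against Vehicle turned to 0.63 for Eed and 0.49 for Bmi1. With ends from 500 bp outside, the Cbx8 start had -2.15 points with AG120 and -2.15 with AZA (3.35 and 3.03 with 1000 bp), and the counts without overlap were 0 lower in AG120 against Vehicle, 0 higher in the combination against Vehicle and 1 higher against AZA. With 2000 bp they were 1 higher in the combination against Vehicle and 2 higher against AG120. With cytosines read at least 10 times in at least 2 libraries, chosen after seeing the data, Ezh1 had -0.751 points with AG120 (0.292 otherwise) and -2.62 with AZA, Cbx2 0.755 with AG120 (-0.199 otherwise), and the counts were 0 lower and 1 higher in AG120 against Vehicle, 1 higher in the combination against Vehicle and 1 lower with AZA. The cause of these changes was not tested.

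When each library was left out in turn, the units called for the average effect of AG120 ran from 0 to 4. The differences with AG120 ran from -0.447 to 1.29 points (Ezh1), -1.15 to 1.12 (Ezh2), -1.49 to -0.554 (Suz12), 0.765 to 2.28 (Jarid2), -0.867 to -0.318 (Bmi1), -1.44 to -0.155 (Eed), -1.09 to 0.581 (Cbx2), 0.383 to 4.56 (Cbx8 start) and 3.75 to 21.6 (Cbx8 far end). The differences with AZA ran from -4.17 to -3.32 (Ezh1), -2.70 to -1.51 (Eed; exact permutation p = 0.0571 without any 1 of the libraries with AZA), -2.64 to -1.41 (Cbx2), 0.259 to 2.53 (Ezh2), -1.52 to -0.694 (Suz12), 0.00993 to 1.42 (Jarid2), -0.719 to -0.161 (Bmi1), 0.0112 to 4.2004 (Cbx8 start) and -18.3 to -2.10 (Cbx8 far end). Counts without overlap ran from 1 to 4 lower and 1 to 4 higher in AG120 against Vehicle. In AZA against Vehicle they ran from 3 to 7 lower and 0 to 2 higher. For the combination they ran from 2 to 4 higher against AZA, and from 3 to 6 lower and 0 to 2 higher against AG120. With AG120 against without it they ran from 0 to 2 lower and 0 to 2 higher. Leaving out a library narrows the range of its group, so these counts can only stay or rise. They therefore cannot show whether the separations are stable, and a rise is not evidence of more separated windows. No share over all end windows with a library left out is given to set beside them. Replicate numbers did not pair the samples (r of their deviations between groups -0.0116 to 0.00972), and with a replicate block edgeR called 0 units in each contrast. Of 18 end windows, 7 held no cytosine of the table and 2 were read in only some libraries. Of the 9 kept, 2 had cytosines with 10 reads in every library.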
